A study of Homo sapiens with 6 samples.

Results

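The MYC and MAX network holds the genes for MYC family transcription factors, their shared partner MAX, the related partner MLX and several repressors. The repressors compete for MAX, and some of them also pair with MLX. The 10 listed members of the network were taken by gene symbol, and all 10 were found among 61541 Ensembl genes in the table. They are the activators MYC, MYCN and MYCL, the shared partners MAX and MLX, and the repressors MXD1, MXD3, MXD4, MXI1 and MNT. Gene counts came from RNA sequencing of cells labelled A498, a line derived from a human clear cell renal carcinoma. One group carried an shRNA against RNF26, an E3 ubiquitin ligase of the endoplasmic reticulum membrane, and its control group carried a control shRNA, with 3 libraries in each. Both groups are labelled as having gone through transfection or infection, and both were kept in RPMI-1640 medium that held fetal bovine serum. The labels give no hairpin sequence and do not say that replicates came from separate cultures. The p-values reflect the spread among the 6 libraries alone, and that spread may be technical.

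MYC proteins bind DNA only as dimers with MAX, and the dimer activates genes for growth, nucleolar function and metabolism through the E-box, a short DNA element. MXD proteins, MXI1 and MNT also dimerise with MAX and bind the same element, where they recruit SIN3 and histone deacetylases and lower transcription. MLX takes the place of MAX for some of the repressors and for MLXIP and MLXIPL, factors that respond to glucose. MYC transcripts are short-lived and rise quickly after growth factor signals, and MYC is amplified or overexpressed in many carcinomas.

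Each library held between 16682871 and 18021718 gene counts. RNF26 itself averaged 68.7 ± 0.482 CPM (counts scaled to the library total) in shRNF26 libraries and 1972 ± 49.7 CPM in shcontrol libraries (SD, n = 3 each), or 3.48% of the shcontrol level. That shcontrol level was far above the 418 CPM of MYC in the same libraries, and why it was so high was not tested. The label was checked against markers. Of 16 renal and clear cell carcinoma markers 11 averaged below 1 CPM, among them SLC17A3 at 0 in every library. The 5 others were KRT8, KRT18, VIM (19.3 and 49.9 CPM in shRNF26 and shcontrol libraries), EGLN3 (15.0 and 8.82 CPM) and PAX8 (2.12 and 2.90 CPM). All 12 squamous epithelial markers averaged at least 1 CPM. The squamous lineage factor TP63 averaged 194 CPM in shRNF26 and 173 CPM in shcontrol libraries. KRT14 (3.09 and 4.04 CPM in shRNF26 and shcontrol libraries), KRT16 (3.78 and 6.94), IVL (2.97 and 2.96) and SPRR1B (2.51 and 5.13) were low. The rest ran from DSG3 (19.7 and 24.4 CPM) to S100A2 (839 and 1083 CPM). With most renal markers below 1 CPM, the transcripts go against the renal label. The squamous markers summed to 3036 to 3193 CPM in shRNF26 libraries, against 3822 to 3988 CPM in shcontrol libraries, and the renal markers to 1151 to 1175 CPM in shRNF26 libraries, against 1463 to 1489 CPM in shcontrol libraries. Most of the renal sum was KRT8 (850 and 1010 CPM in shRNF26 and shcontrol libraries) and KRT18 (269 and 401 CPM), keratins found in simple epithelia in general. Of 12 stromal and blood markers 10 averaged below 1 CPM, with HBB and COL3A1 at 0, and their sums were 88.4 to 93.1 CPM in shRNF26 libraries, against 60.4 to 71.3 CPM in shcontrol libraries, mostly from COL1A1 (84.7 and 59.5 CPM in shRNF26 and shcontrol libraries). The part of these markers in the results was not tested. In bulk samples, fewer cells of a type and less RNA per cell cannot be told apart.

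Of the 10 members, 9 reached the minimum of 1 CPM on average over the 6 libraries and were tested. In shRNF26 libraries 5 members fell, namely MYC, MAX, MXD1, MXD4 and MLX, 1 rose, MXD3, and MYCL, MXI1 and MNT did not pass an adjusted p of 0.05 (edgeR quasi-likelihood test, Benjamini-Hochberg over 14766 genes). That is 6 of 9 members called, where 41.4% of all tested genes were called, 22.6% lower and 18.9% higher. In 6 of 9 members the libraries of the groups did not overlap, where that held for 50.1% of all tested genes. The 3 clear falls and the rise of MXD3 kept their direction and call under each of 16 alternative settings. The calls of MXD4 and MLX were near the threshold: with libraries scaled by total counts 3 members fell and 3 rose, and without shRNF26 replicate 1 the number that fell was 3. Without shRNF26 replicate 3, when MYCL passed, 2 rose. Over all tested genes that scaling turned 2785 higher and 3332 lower calls into 4449 higher and 2269 lower.

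**Figure D1:**
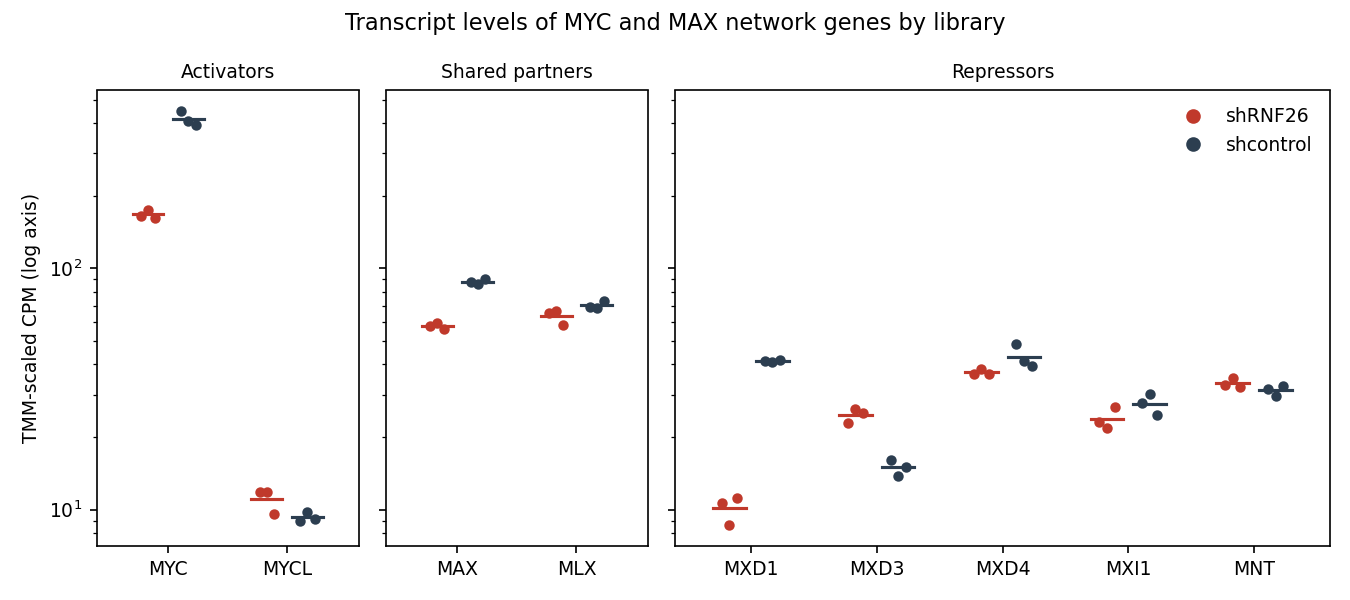
TMM-scaled CPM (log axis) of the 9 tested members in each library, by role. Points are libraries, shRNF26 to the left of shcontrol, and lines are group means. MYC, MAX and MXD1 lie lower in all shRNF26 libraries, with MYC at 162 to 175 CPM against 395 to 449 CPM in shcontrol libraries, and MXD3 lies higher.

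MYC, the founding activator of the network and a driver of growth in many tumours, was by far the most abundant member and fell 2.49-fold. Its counts were 2945, 3226 and 2792 in shRNF26 libraries, against 7812, 6726 and 6479 in shcontrol libraries. Scaled by the trimmed mean of M values (TMM, used for all CPM here), these were 166, 175 and 162 CPM in shRNF26 libraries, against 449, 410 and 395 CPM in shcontrol libraries. Every shRNF26 library was below every shcontrol library, and the spread within each group was small beside the gap. The log2 fold change was -1.32 (SE 0.048), with an edgeR adjusted p of 4.79e-14. In all, 209 of the 14766 tested genes had a larger fall. Over the 16 alternatives the log2 fold change ran from -1.36 to -1.22.

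MYCL, the MYC paralog first found in lung cancer, was expressed far below MYC and did not pass the test. Its CPM were 11.9, 11.8 and 9.60 in shRNF26 libraries and 8.96, 9.74 and 9.14 in shcontrol libraries. One shRNF26 library lay within the range of the shcontrol libraries. The log2 fold change was 0.26 (95% interval 0.02 to 0.50, edgeR adjusted p = 0.0818), and without shRNF26 replicate 3 it was 0.36 and passed (adjusted p = 0.024). It also passed with total-count scaling (adjusted p = 0.020) and upper-quartile scaling (adjusted p = 0.036). MYCN, the paralog amplified in neuroblastoma, had 0 counts in each shRNF26 library and 0, 4 and 0 counts in shcontrol libraries. It was below the minimum and not tested, and a count of 0 still allows up to 3 counts in a library (counting error only).

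MAX, without which MYC proteins do not bind DNA, fell 1.52-fold. Its CPM were 57.9, 59.6 and 56.2 in shRNF26 libraries, against 87.7, 86.6 and 90.2 in shcontrol libraries, and the groups did not overlap. The log2 fold change was -0.61 (SE 0.051), an edgeR adjusted p of 1.41e-08 and a range of -0.63 to -0.52 over the alternatives. MLX, the related partner of MLXIP and MLXIPL, changed far less. It had 65.1, 66.6 and 58.3 CPM in shRNF26 libraries, against 69.2, 68.7 and 73.3 CPM in shcontrol libraries, and the groups came close without overlapping. Its log2 fold change of -0.15 (SE 0.059) passed narrowly (edgeR adjusted p = 0.0434), and the call was lost in 8 of the 16 alternatives, among them total-count scaling (-0.06), DESeq2 (-0.15) and leaving out shRNF26 replicate 1 (-0.17), shRNF26 replicate 3 (-0.10), shcontrol replicate 2 (-0.17) or shcontrol replicate 3 (-0.13). PSMC3IP, which shares 18.1% of MLX exon bases on the opposite strand, averaged 25.6 ± 3.30 CPM in shRNF26 libraries and 46.8 ± 6.54 CPM in shcontrol libraries. The labels do not say whether the counting used strand, and its part in the MLX value was not tested.

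**Figure D2:**
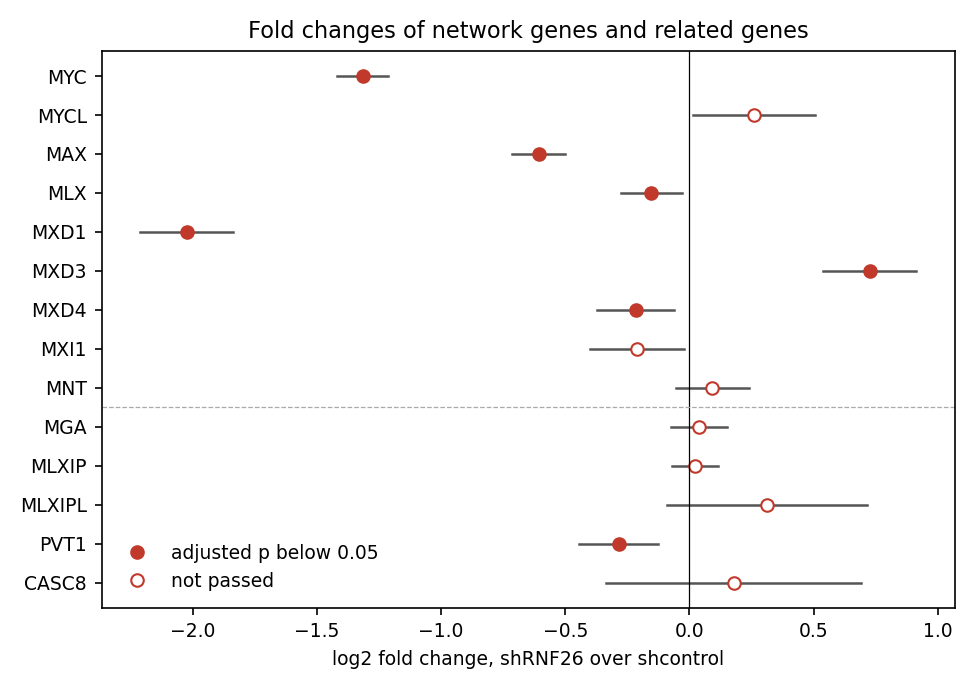
Log2 fold change of shRNF26 over shcontrol for the 9 tested members (above the dashed line) and for related genes (below it), with 95% intervals from the edgeR fit. Filled points passed an adjusted p of 0.05. MXD1 at -2.02 and MYC at -1.32 lie farthest to the left, and MXD3 at 0.73 farthest to the right.

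MXD1, a repressor usually raised as cells leave the cycle and differentiate, had the largest change of any member and fell 4.06-fold. Its counts were 190, 159 and 192 in shRNF26 libraries, against 721, 670 and 683 in shcontrol libraries. In CPM these were 10.7, 8.64 and 11.2 in shRNF26 libraries, against 41.4, 40.8 and 41.6 in shcontrol libraries. The shcontrol libraries were nearly equal and all shRNF26 libraries were far below them. The log2 fold change was -2.02 (SE 0.089), with an edgeR adjusted p of 8.26e-13. A larger fall was seen in 81 tested genes, and the alternatives gave -2.09 to -1.92. SNRNP27 shares 3.73% of MXD1 exon bases on the same strand and averaged 18.8 ± 1.21 CPM in shRNF26 libraries and 24.3 ± 2.08 CPM in shcontrol libraries.

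MXD3, its paralog described in proliferating cells, moved the other way and rose 1.65-fold. Its counts were 408, 481 and 433 in shRNF26 libraries, against 280, 226 and 247 in shcontrol libraries. In CPM these were 23.0, 26.1 and 25.2 in shRNF26 libraries, against 16.1, 13.8 and 15.0 in shcontrol libraries, with no overlap. The log2 fold change was 0.73 (SE 0.089), with an edgeR adjusted p of 2.51e-06, and the alternatives gave 0.67 to 0.82. MXD3 shares exon bases with a neighbour on each strand, 18.0% with RAB24 on its own strand and 22.5% with PRELID1 on the other. RAB24 averaged 5.14 ± 0.510 CPM in shRNF26 and 6.08 ± 0.681 CPM in shcontrol libraries (log2 fold change -0.24, not passed). PRELID1 fell to 84.5 ± 6.93 CPM in shRNF26 libraries, against 114 ± 10.6 CPM in shcontrol libraries. How reads in shared bases were counted is not stated, and the part of these neighbours in the MXD3 value was not tested.

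The sequences before the starts of MXD1 and MXD3 are shown because these paralogs moved in opposite directions. They are the 250 bases before each start, 5′ to 3′ on the gene's strand, from RefSeq on GRCh38.p14, while the counts were made on hg19. MXD1 is at chr2:69914859-69915108 on the plus strand and MXD3 at chr5:177312753-177313002 on the minus strand. Capitals mark a match to the AP-1 motif TGANTCA.
MXD1: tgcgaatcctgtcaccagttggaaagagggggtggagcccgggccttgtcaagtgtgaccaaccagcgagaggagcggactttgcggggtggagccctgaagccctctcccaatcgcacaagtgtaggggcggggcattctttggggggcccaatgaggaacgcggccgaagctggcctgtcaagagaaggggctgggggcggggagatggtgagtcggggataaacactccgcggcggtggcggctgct
MXD3: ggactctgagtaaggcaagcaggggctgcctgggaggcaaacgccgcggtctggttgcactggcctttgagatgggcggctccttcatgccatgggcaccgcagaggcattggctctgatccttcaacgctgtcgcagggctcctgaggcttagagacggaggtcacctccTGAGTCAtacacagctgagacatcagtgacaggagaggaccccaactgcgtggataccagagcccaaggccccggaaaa
The canonical E-box CACGTG was in neither. Among 12 RefSeq windows of 9 members, these included, each from 250 bases before to 50 after a start, 3 held CACGTG and 1 held TGANTCA. These 9 members include MYCN but not MYC, which had no window and was not searched. Over all 35116 windows the shares were 7.26% and 7.71%. Both motifs read the same on either strand. The E-box windows belong to MXD4, MNT and MLX, with log2 fold changes between -0.22 and 0.09, and are shown with CACGTG in capitals and 10 bases on each side. They lie at chr4:2262332-2262357 (minus strand), chr17:2401238-2401263 (minus strand) and chr17:42567040-42567065 (plus strand).
MXD4: gccgggccacCACGTGctgttgctaa
MNT: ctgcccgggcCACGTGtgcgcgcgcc
MLX: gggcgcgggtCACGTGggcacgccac
A match is a description of the letters and not a measured binding site.

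The other repressors changed little. MXD4 had 36.4, 38.5 and 36.6 CPM in shRNF26 libraries, against 48.6, 41.2 and 39.6 CPM in shcontrol libraries, with shcontrol replicate 1 above the rest. Its log2 fold change was -0.22 (SE 0.074), with an edgeR adjusted p of 0.0252. Without shcontrol replicate 1 it was -0.12 and did not pass, and the call was also lost with total-count scaling (-0.12), with upper-quartile scaling (-0.16) and without shRNF26 replicate 1 (-0.20) or shRNF26 replicate 3 (-0.20). MXI1, described as a target of hypoxia-inducible factors, had 23.1, 21.8 and 26.5 CPM in shRNF26 libraries and 27.7, 30.3 and 24.6 CPM in shcontrol libraries. These overlapped, and the log2 fold change of -0.21 (95% interval -0.40 to -0.02) did not pass (edgeR adjusted p = 0.0693), though it did without shRNF26 replicate 3 (-0.29) or shcontrol replicate 3 (-0.29) and with the replicate number as a block (-0.21, adjusted p = 0.0497). MNT, a repressor expressed in most tissues, had 32.9, 35.2 and 32.1 CPM in shRNF26 libraries and 31.7, 29.7 and 32.7 CPM in shcontrol libraries. Its log2 fold change was 0.09 (95% interval -0.06 to 0.24, edgeR adjusted p = 0.318), and it passed with total-count scaling only (0.18).

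To compare levels between genes, CPM were divided by the exon length of each gene in GENCODE 29. That length merges the exons of all annotated transcripts and may exceed that of the transcripts expressed, so levels compared between genes are approximate. Per kilobase, MYC led in both groups, at 55.9 ± 2.23 CPM per kb in shRNF26 libraries and 139 ± 9.31 CPM per kb in shcontrol libraries. In shRNF26 libraries MLX (14.9 ± 1.04 CPM per kb) came before MAX (13.1 ± 0.386), whereas in shcontrol libraries MAX (19.9 ± 0.421) came before MLX (16.5 ± 0.598), in each group without overlap between the libraries of these neighbours. MXD1 ranked 9 of the 10 members by this level in shRNF26 libraries, at 1.68, 1.36 and 1.76 CPM per kb, and 4 of 10 in shcontrol libraries, at 6.52, 6.42 and 6.55 CPM per kb. In shcontrol libraries MXD1, MXD4 and MXI1 overlapped their neighbours in the order, and so did MXD4, MXI1 and MXD3 in shRNF26 libraries. MNT (3.83 ± 0.185 and 3.59 ± 0.179 CPM per kb in shRNF26 and shcontrol libraries) stood below these.

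Ratios within a library do not depend on scaling, though their size depends on the exon lengths used. MYC counts per kb over MAX counts per kb came to 4.23, 4.34 and 4.27 in shRNF26 libraries, against 7.56, 6.98 and 6.46 in shcontrol libraries. MXD1 over MXD3 per kb was 0.378, 0.268 and 0.360 in shRNF26 libraries, against 2.09, 2.41 and 2.24 in shcontrol libraries, so the order of these paralogs turned round in every library. MXD1 made up 7.75 ± 1.01% of the summed repressor transcripts per kb in shRNF26 libraries and 25.9 ± 1.10% in shcontrol libraries, while MXD3 made up 22.2, 24.6 and 23.0% in shRNF26 libraries, against 11.9, 10.7 and 12.1% in shcontrol libraries. The shares of MXD4 and MXI1 overlapped between groups.

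The summed repressors were also lower, at 20.7 ± 0.603 CPM per kb in shRNF26 libraries and 25.1 ± 1.02 in shcontrol libraries, but less so than the summed activators, at 58.1 ± 2.41 and 141 ± 9.28 CPM per kb in shRNF26 and shcontrol libraries. Activators over repressors came to 2.87, 2.94 and 2.63 in shRNF26 libraries, against 5.78, 5.56 and 5.52 in shcontrol libraries. On the log2 scale the difference was -0.998, with -1.03 to -0.95 on leaving out any 1 library and -0.96 on CPM not divided by length. The sum weighs members by abundance and MYC held 96.2% and 98.7% of the activator transcripts in shRNF26 and shcontrol libraries, so MYC weighs most in the ratio. Gene counts measure transcripts and give no amount of protein or dimer.

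**Figure D3:**
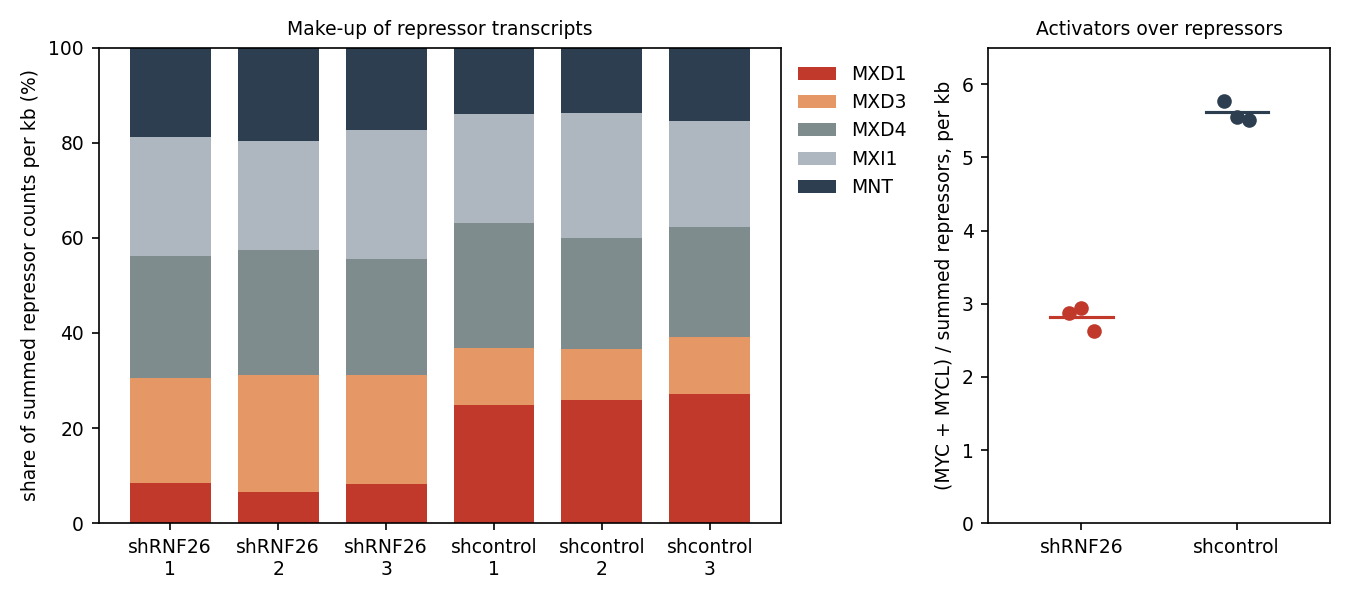
Left, share of each repressor in the summed repressor counts per kb (%) in each library, shRNF26 libraries first. Right, MYC plus MYCL over the summed repressors per kb, with points for libraries and lines for means. The MXD1 share is 7.75% against 25.9% in shcontrol libraries and the ratio is below 3 in every shRNF26 library.

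The other MAX and MLX partners did not pass. MGA, a large MAX partner in a polycomb complex, averaged 97.1 ± 3.79 CPM in shRNF26 libraries and 94.4 ± 6.30 CPM in shcontrol libraries (log2 fold change 0.04, 95% interval -0.07 to 0.15). MLXIP averaged 172 ± 3.65 and 170 ± 7.01 CPM in shRNF26 and shcontrol libraries (0.02, interval -0.07 to 0.11), and it passed with total-count scaling (0.11). MLXIPL averaged 4.68 ± 0.752 and 3.77 ± 0.720 CPM in shRNF26 and shcontrol libraries (0.31, interval -0.09 to 0.71). Among non-coding genes beside members, PVT1, which lies next to MYC on chromosome 8, fell to 21.7 ± 0.937 CPM in shRNF26 libraries, against 26.4 ± 0.326 CPM in shcontrol libraries (log2 fold change -0.29, SE 0.075, passing at an adjusted p of 0.00513 in edgeR). The 95% interval was -0.44 to -0.13 for PVT1 and -1.42 to -1.21 for MYC. CASC8 averaged 2.15 ± 0.418 and 1.89 ± 0.115 CPM in shRNF26 and shcontrol libraries and did not pass (0.18), CASC11 had 1 to 7 counts in each library, and MYCNOS and MYCNUT had 0. The MYCL pseudogene MYCLP1 also had 0 counts.

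Genes described as raised by MYC were lower more often than higher. Of 75 listed, 74 were tested, of which 27 fell, 8 rose and 39 did not pass. The 8 that rose include EIF4A1 (11.1 and 8.39 CPM in shRNF26 and shcontrol libraries). EIF4A1 shares exons with other annotated genes on the same strand, so its counts are uncertain, as are those of NOP2, which did not pass. The share of the list that fell was 36.5%, against 22.6% of all tested genes, and the share that rose 10.8%, against 18.9%. This list and those below were chosen with earlier results of these data known, so their shares are a description and not a test. The list median was -0.08 on the log2 scale, where that of all tested genes was 0.01. With total-count scaling the list median was 0.0093, with 16 higher and 19 lower. That scaling also moved all tested genes, to 4449 higher and 2269 lower. Over all settings the median of all tested genes ran from -0.024 to 0.099. Without shRNF26 replicate 1, 5 genes of the list rose. ODC1, the first enzyme of polyamine synthesis and a classic MYC target, fell to 170 ± 2.17 CPM in shRNF26 libraries, against 313 ± 2.09 CPM in shcontrol libraries (1.85-fold). The cell cycle phosphatase CDC25A fell to 53.4 ± 1.41 CPM in shRNF26 libraries, against 90.7 ± 1.96 CPM in shcontrol libraries. The nucleolar regulator LYAR and the ribosome assembly factor NIP7 fell 1.41-fold and 1.39-fold.

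The largest rise in that list was of E2F2, a factor for S-phase genes, with 9.32 ± 0.530 CPM in shRNF26 libraries and 5.00 ± 1.48 CPM in shcontrol libraries (1.86-fold). TERT, the catalytic subunit of telomerase, rose 1.48-fold.

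Of 20 genes described as lowered by MYC, 15 were tested, of which 8 fell, 3 rose and 4 did not pass, with a median of -0.19. The share that fell was 53.3%, against 22.6% of all tested genes, and the share that rose was 20.0%, near the 18.9% of all tested genes. The growth arrest gene GADD45A fell to 51.8 ± 6.47 CPM in shRNF26 libraries, against 352 ± 26.3 CPM in shcontrol libraries (6.79-fold). The CDK inhibitor genes CDKN2B and CDKN1A fell 2.57-fold and 1.82-fold, the matrix gene THBS1 2.52-fold and the D-type cyclin gene CCND1 2.25-fold. GAS1, another growth arrest gene, rose 1.98-fold from a low level, with 37, 24 and 19 counts in shRNF26 libraries and 17, 11 and 10 counts in shcontrol libraries. Its call was lost with DESeq2 (adjusted p = 0.070). In edgeR the call was lost without shcontrol replicate 2 (log2 fold change 0.90, adjusted p = 0.085) or shcontrol replicate 3 (log2 fold change 0.85, adjusted p = 0.089). Several of these genes are also described outside the MYC field as responding to stress and growth signals. The part of MYC or of such signals in these values was not tested.

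Genes described as targets of MLX with MLXIP or MLXIPL moved in both directions. TXNIP, which encodes a brake on glucose uptake, fell to 127 ± 3.20 CPM in shRNF26 libraries, against 356 ± 5.96 CPM in shcontrol libraries (2.81-fold), and its relative ARRDC4 fell to 15.7 ± 0.430 CPM in shRNF26 libraries, against 43.7 ± 0.745 CPM in shcontrol libraries (2.79-fold). KLF10 fell 2.56-fold. The lipid synthesis genes SCD and FASN rose 1.51-fold and 1.37-fold. ACACA was called lower, but 285 of its counts lay in shcontrol replicate 2, against 98 and 68 in the other shcontrol libraries, and its log2 fold change was -0.93 with that library and -0.049 without it. The ACACA call was also lost on leaving out any 1 of the shRNF26 libraries (-0.95 to -0.90). Of 7 tested, 4 fell (57.1%, against 22.6% of all tested genes), ACACA among them, 2 rose (28.6%, against 18.9%), and ELOVL6, also of lipid synthesis, did not pass (-0.09). The list median of -0.93 was the value of ACACA, and without shcontrol replicate 2 it was -0.049.

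**Figure D4:**
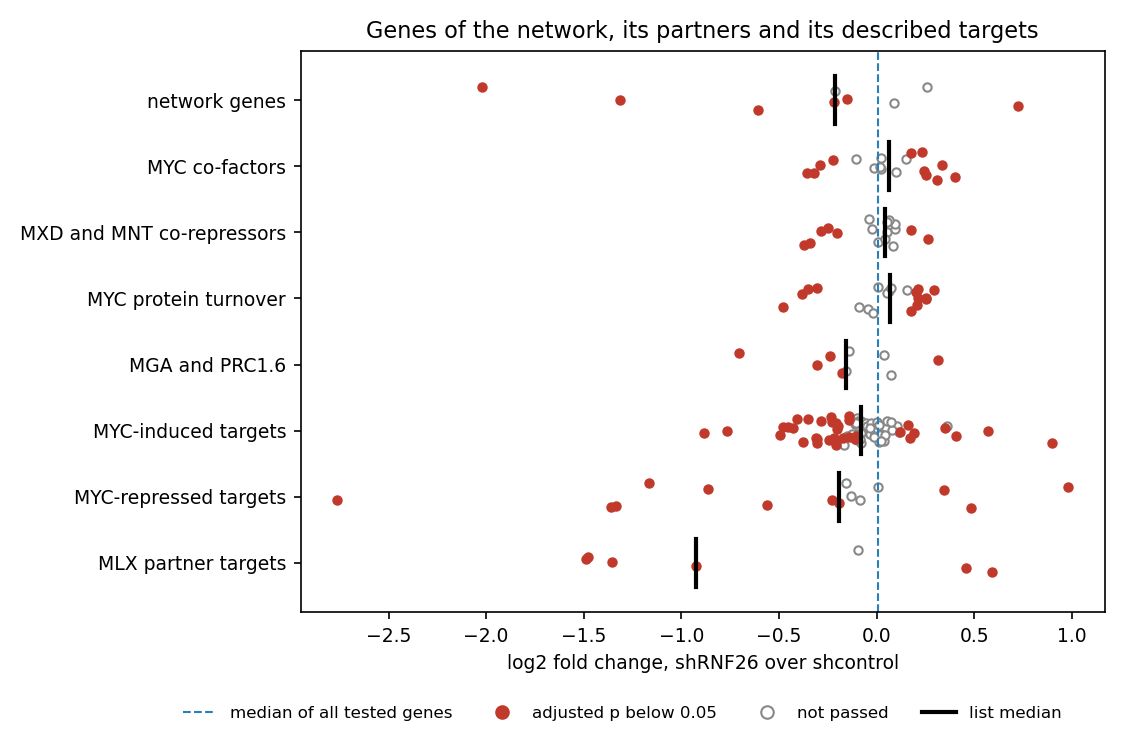
Log2 fold change of shRNF26 over shcontrol for each tested gene of the network and of 7 related lists, one row a list. Filled points passed an adjusted p of 0.05, black bars are list medians, and the dashed line is the median of all tested genes. Co-factor and turnover genes lie within about 0.5 of 0, while MYC-repressed and MLX partner targets reach -2.76 and -1.49.

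Partner genes for the proteins of the network changed little in size. Of 18 tested MYC co-factor genes 7 rose, 4 fell and 7 did not pass (median 0.06). These were 38.9% higher and 22.2% lower, against 18.9% and 22.6% of all tested genes. DMAP1 (0.40) and the acetyltransferase KAT2A (0.33) rose on the log2 scale, as did TRRAP (0.31), the scaffold that brings acetyltransferases to MYC. CCNT1, the cyclin of an elongation kinase (-0.32), and the elongation factor SUPT5H (-0.29) fell. Of 17 SIN3 and deacetylase co-repressor genes 2 rose, 5 fell and 10 did not pass (median 0.04). These were 11.8% higher and 29.4% lower, against 18.9% and 22.6% of all tested genes, so the share called in either direction was near the 41.4% of all tested genes. ING1 (-0.37) and SAP18 (-0.34) fell most and the scaffold SIN3A rose (0.26), while ARID4A (-0.28), ARID4B (-0.20) and ING2 (-0.25) lost their calls with total-count scaling. That scaling gave 8 higher and 2 lower in this list, where it gave 4449 higher and 2269 lower among all tested genes. Without shRNF26 replicate 2, 3 genes of the list were lower, and ARID4A also lost its call. ING2 kept its call in 1 of 16 alternatives.

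Of 20 genes for MYC protein turnover 8 rose, 4 fell and 8 did not pass (median 0.07). These were 40.0% higher and 20.0% lower, against 18.9% and 22.6% of all tested genes. The falls were of USP36, a nucleolar deubiquitinase that stabilises MYC (-0.48), AXIN1 (-0.38), FBXW7, the ubiquitin ligase subunit that recognises phosphorylated MYC (-0.35), and the kinase GSK3A (-0.31). USP22 (0.29) and AURKA, a kinase that protects MYCN from degradation (0.26), rose. In the PRC1.6 complex, which contains MGA and MAX, 4 of 9 tested genes fell and 1 rose (median -0.16), or 44.4% and 11.1%, against 22.6% lower and 18.9% higher of all tested genes. RYBP fell to 51.5 ± 4.39 CPM in shRNF26 libraries, against 83.9 ± 3.38 CPM in shcontrol libraries (log2 fold change -0.71), and L3MBTL2 rose (0.31). YAF2 (-0.31), PCGF6 (-0.24) and TFDP1 (-0.18) fell, and all 3 calls were lost with total-count scaling, which gave 2 higher and 1 lower. The YAF2 call was also lost without shRNF26 replicate 2, and that of PCGF6 without shRNF26 replicate 1 or shRNF26 replicate 3.

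Over the 6 libraries the genes whose log2 CPM was most like that of MYC by Pearson correlation were AMIGO2, ISG15 and IRS2, each at 0.9995 or above among 10014 genes with at least 10 CPM. For MXD1 they were CFAP20, PMAIP1 and AGO2, each at 0.9991 or above. These points share 2 groups of libraries, and 1202 genes correlated with MYC and 1256 with MXD1 above 0.95, so many genes share this likeness.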

How the data were processed

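The authors deposited 1 table of read counts per gene (whole numbers, although its name refers to FPKM) for 61541 Ensembl IDs, and 2 blank rows (0% of the counts) were left out. Per the submitters' processing notes the build is hg19, and per the labels' protocols libraries came from a NEBNext directional kit. The aligner, counting program, annotation and strand setting are not stated in the labels or notes. Overlapping genes may therefore share or lose reads. Totals were 16682871 to 18021718 counts, so 1 count was worth 0.0555 to 0.0599 CPM. Symbols came from a gene name table (61369 IDs) and GENCODE 29 (159 IDs), which also gave exon lengths and overlaps.

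Genes with a mean of at least 1 CPM (14766, with 99.7% of counts) were tested in edgeR 4.0.16 (R 4.3.3) by the quasi-likelihood test with TMM scaling, two-sided, with Benjamini-Hochberg adjustment over all of them and a threshold of 0.05. Each standard error was the size of the log2 fold change divided by the root of F. On 1 set of simulated counts for the 14766 genes, 50 genes were altered at each size of change and all genes had the same replicate spread. A change of 1.25-fold was called in 62% of the altered genes, one of 1.5-fold in 84%, one of 2-fold in 98% and one of 4-fold in 100%. Of 179 calls 7 were false. In the data far more genes were called (41.4%) and spread may differ by gene, so these rates need not hold there. Replicates differed by more than sampling noise (chi-square per degree of freedom 2.15 to 4.28 within groups). The groups and replicate numbers come from the titles.

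Named were all members, RNF26, the other MAX and MLX partners, the listed non-coding neighbours, up to 6 called genes of each list with the largest change, and for MYC and MXD1 the 3 genes most like them. Some genes of the lists are not reported here. The members and lists were chosen with earlier results of these data known. Alternatives used DESeq2 1.42.0, limma 3.58.1 with voom, other scalings, other filters, a replicate block and leaving out each library. Sequences came from RefSeq (GRCh38.p14).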

Additional observations from a re-analysis of the deposited data

How the results depend on the processing

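The log2 fold changes of MYC, MAX, MXD1 and MXD3 kept their direction and call in all 16 alternatives, and those of MXD4, MLX, MYCL, MXI1 and MNT kept their direction but not always their call, as given above. Scaling was the choice that moved most values. The median of all tested genes itself ran from -0.024 to 0.099 over all settings, and the list medians below are to be read beside it. With total-count scaling 4449 genes were called higher and 2269 lower, against 2785 and 3332 with TMM. Members called were then 3 higher and 3 lower, co-repressor genes 8 higher and 2 lower, and PRC1.6 genes 2 higher and 1 lower. MYC-induced targets were 16 higher, and MLXIP became the 1 other partner called higher. The list medians then were 0.15 for MYC co-factors, 0.14 for co-repressors, 0.16 for turnover genes, -0.064 for PRC1.6, 0.0093 for MYC-induced targets, -0.10 for MYC-repressed targets and -0.84 for MLX partner targets. With upper-quartile scaling members called were 2 higher and 3 lower, co-repressor genes 5 higher, PRC1.6 genes 2 higher and MYC-induced targets 13 higher, with medians in the same order of 0.12, 0.10, 0.12, -0.10, -0.028, -0.14 and -0.87. The median of MYC-repressed targets was -0.15 with a minimum of 0.1 CPM and -0.22 with a minimum of 5 CPM, and that of MLX partner targets was -0.63 with limma voom and -0.77 with the replicate block. Leaving out 1 library gave 1 to 2 members higher and 3 to 5 lower, 3 to 5 co-repressor genes lower and 5 to 8 MYC-induced targets higher. The medians then ran from -0.0068 to 0.051 for co-repressors, 0.052 to 0.14 for turnover genes, -0.18 to -0.11 for PRC1.6, -0.095 to -0.059 for MYC-induced targets, -0.22 to -0.16 for MYC-repressed targets and -1.27 to -0.049 for MLX partner targets, whose middle gene was ACACA. Deviations of same-numbered libraries from their group means had correlations of 0.01, -0.03 and 0.09, within the range of -0.12 to 0.12 of differently numbered pairs. With means of only 3 libraries, these values cannot show whether same-numbered libraries shared a culture or a preparation. With the replicate block 2935 genes were called higher and 3479 lower, and of the members only MXI1 changed its call. Counts of EIF4A1 and NOP2, which share exons with other annotated genes on the same strand, are uncertain. Low counts limit MYCN, CASC11 and MLXIPL.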
